A study of Mus musculus with 24 samples.

Results

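The genes described here encode 10 mitochondrial proteases and chaperones, measured in mouse embryonic fibroblasts under ER stress. They are Lonp1, Clpp, Clpx, Hspd1, Hspe1, Hspa9, Yme1l1, Afg3l2, Spg7 and Htra2, and each was found on the arrays through the transcript accession of its probe. All 10 were among the 20170 genes that could be named, and all 10 were among the 14459 genes tested. Where a gene had several probes, the brightest over the 24 arrays stood for it. RNA was hybridised to 24 one-colour Agilent arrays in 10 groups. Wild-type fibroblasts were left untreated (n = 4) or exposed for 12 h to 2 µg per mL of tunicamycin (n = 4). Perk-null (labelled PERKKO), Atf4-null (ATF4KO) and eIF2a A/A fibroblasts were each left untreated (n = 2) or given the same tunicamycin treatment (n = 2). Fibroblasts with the transgene Fv2E-PERK were left untreated (n = 2) or given AP, an agent named only by these letters and without a dose, for 12 h (n = 2). In RNA from whole cultures, fewer cells of a type and less RNA per cell cannot be told apart. Nothing in the labels shows replicates to be separate cultures, so the p-values here cover only sample-to-sample spread, possibly technical. How each line was made, and from how many clones, is not given in the sources used here.

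Most mitochondrial proteins are made in the cytosol, imported unfolded and folded or degraded inside the organelle. In the matrix, the mitochondrial HSP70 encoded by Hspa9 pulls proteins in and starts their folding, and the chaperonin of Hspd1 (HSP60) and its lid Hspe1 (HSP10) encloses them while they fold. Lonp1 and the ClpXP pair, the peptidase Clpp with its unfoldase Clpx, degrade damaged matrix proteins. In the inner membrane, Yme1l1 forms the protease that faces the intermembrane space, and Afg3l2 and Spg7 form the one that faces the matrix, while the serine protease Htra2 works in the intermembrane space. Tunicamycin blocks N-linked glycosylation in the ER and activates the kinase PERK, which phosphorylates eIF2a and raises translation of the transcription factor ATF4. In eIF2a A/A cells eIF2a lacks the serine that PERK phosphorylates, and in Fv2E-PERK the kinase domain of PERK is fused to a domain that a drug can pair up. The design compares the response of cells that have this pathway with that of cells lacking one of its steps.

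Levels are given as log2 intensity relative to each array's 75th percentile, so that 1 unit is a doubling of signal. They compare samples for 1 gene and do not compare genes with each other. All 10 genes were well above background on all 24 arrays, on which 45.1% to 58.2% of probes were. Arrays were scanned in 3 runs, with wild-type replicates 1 and 2 and Atf4-null in run 1, wild-type replicates 3 and 4 and Perk-null in run 2, and the other lines in run 3. Sex-linked genes set the wild-type arrays of both runs apart. In run 1 the Xist probe passed the background flag on 4 of 4 and the Ddx3y probe on 0 of 4, and in run 2 the counts were 0 and 4. On Perk-null, Atf4-null and eIF2a A/A arrays the counts were 4 and 0, and on Fv2E-PERK arrays 0 and 4. Perk-null cells so differed in these genes from the wild type of their own run, while Atf4-null cells did not. The 4 wild-type replicates thus pool 2 sets of cells, and the run term in the fit cannot tell run from set: 4586 of all tested genes, 5 of the 10 described here among them, differed between the untreated wild-type arrays of the 2 runs. In run 1, untreated and treated arrays were on different slides and scanned on different days, so treatment cannot be told apart from slide and scan day there, while in run 2 untreated and treated wild-type arrays shared a slide and a day. The Atf4 probe read between 7.20 and 9.14 on wild-type arrays and between -4.27 and 2.79 on Atf4-null arrays. The probe for Eif2ak3, the gene of PERK, read between -0.05 and 1.79 on wild-type arrays and between -0.47 and 0.28 on Perk-null arrays. On Fv2E-PERK arrays it read between -0.77 and -0.40, so low readings were not particular to Perk-null cells. Whether the probe lies in the deleted part is not given in the sources used here. Of 12 fibroblast markers, 11 were well above background on all arrays. Of 6 epithelial markers 0 were, but their summed level was 44.2 to 58.4 times the 75th percentile on Perk-null arrays and 0.173 to 1.38 on all others. The haematopoietic markers Cd14, Csf1r and Itgam, the endothelial Pecam1 and Kdr and the neural Tubb3, Map2 and Nes were well above background on all arrays. These 3 lists summed to 11.6 to 90.3, 4.32 to 17.8 and 6.90 to 44.0, against 299 to 1771 for the fibroblast markers. Of 5 skeletal muscle markers 0 were above background on all arrays. For replicate 2 of untreated Perk-null cells, the file name gives a 24 h mock treatment and the label no time.

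In wild-type fibroblasts, tunicamycin raised 6 of the 10 genes and lowered 2. The matrix protease Lonp1 and the mitochondrial HSP70 gene Hspa9 rose most, and the chaperonin pair Hspd1 and Hspe1, the peptidase Clpp and the intermembrane-space protease Htra2 rose by less. Among all tested genes, 21.2% were higher and 16.3% lower at the same threshold, a limma p adjusted by Benjamini-Hochberg over all tested genes below 0.05. The median response of the 10 genes was 0.66, against 0.07 over all tested genes. For 6 genes every treated wild-type array lay above every untreated one, which held for 13.7% of all genes.

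Lonp1 read 5.65, 5.60, 5.35 and 5.41 on the untreated wild-type arrays and 7.44, 7.31, 7.20 and 7.29 after tunicamycin. The groups stood well apart, and the response was 1.80 ± 0.08 (SE, n = 4 against 4; limma adjusted p = 2.74e-10), a 3.49-fold rise. Within run 1 alone it was 1.74 ± 0.11 and within run 2 alone 1.86 ± 0.11. Clpp read 2.65, 2.36, 2.66 and 2.67 untreated and 3.39, 3.16, 3.19 and 3.27 treated. The treated arrays lay above all untreated ones, and Clpp rose by 0.67 ± 0.11 (limma adjusted p = 0.000194). Its partner Clpx, which feeds unfolded proteins to Clpp, read 2.12, 2.37, 2.75 and 2.83 untreated and 2.20, 1.74, 2.92 and 3.04 treated. These values overlapped, with a difference of -0.04 ± 0.13 (limma adjusted p = 0.834, 95% interval -0.33 to 0.24), so a rise of the size seen for Clpp lay outside the interval for Clpx.

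The chaperones Hspa9, Hspd1 and Hspe1 all rose. Hspa9 read 5.48, 5.25, 5.51 and 5.62 untreated and 7.09, 6.89, 7.03 and 7.07 after tunicamycin. The lowest treated array was more than 1 unit above the highest untreated one, and the response was 1.55 ± 0.14 (limma adjusted p = 5.57e-07), a 2.93-fold rise. Hspd1 read 6.13, 6.22, 6.66 and 6.82 untreated and 7.17, 7.06, 7.35 and 7.55 treated, a response of 0.83 ± 0.19 (limma adjusted p = 0.00266). Hspe1 read 6.06, 5.86, 6.57 and 6.74 untreated and 6.94, 6.88, 7.07 and 7.17 treated, a response of 0.71 ± 0.16 (limma adjusted p = 0.00227). For both chaperonin genes the untreated arrays of run 1 were lower than those of run 2. Within run 1 Hspd1 rose by 0.94 ± 0.27 (limma adjusted p = 0.0133) and Hspe1 by 0.95 ± 0.21 (0.0025), while in run 2 alone neither was called, at 0.71 ± 0.27 (adjusted p = 0.077) and 0.46 ± 0.21 (adjusted p = 0.137). A dimmer probe for Hspe1 gave 0.52 ± 0.27 (limma adjusted p = 0.148), and the remaining one 0.83 ± 0.19 (0.00251).

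Of the inner-membrane proteases among the 10 genes, Yme1l1, Spg7 and Afg3l2, none was called higher. Yme1l1 read -1.32, -0.86, -0.68 and -0.60 untreated and -1.38, -1.88, -0.75 and -0.77 after tunicamycin, overlapping values with a response of -0.33 ± 0.12 (limma adjusted p = 0.0441). It was called in run 1 alone, at -0.54 ± 0.16, and not in run 2 alone, at -0.12 ± 0.16, nor with the slide as a random block (-0.29, adjusted p = 0.0985). Leaving out any of 18 of the 24 arrays ended this call, untreated replicate 2 and treated replicate 2 moving it to -0.20 and -0.19. Spg7, a subunit of the matrix-facing protease, read 4.99, 4.97, 5.36 and 5.39 untreated and 4.87, 4.64, 5.01 and 5.16 treated. Each run's treated arrays lay below its untreated ones, with a response of -0.26 ± 0.09 (limma adjusted p = 0.0383), a call that leaving out any of 8 arrays ended. It was not called within run 1 or run 2 alone (adjusted p = 0.197 and 0.137) or with the slide as a block (0.0528). Its partner Afg3l2 read 1.88, 2.26, 2.79 and 2.85 untreated and 2.34, 2.36, 3.07 and 3.15 treated, a difference of 0.28 ± 0.18 (limma adjusted p = 0.245). Htra2 of the intermembrane space read 5.15, 4.74, 4.72 and 4.94 untreated and 5.80, 5.88, 5.15 and 5.35 treated. Its highest untreated and lowest treated arrays nearly met, and it rose by 0.66 ± 0.11 (limma adjusted p = 0.000344), by 0.90 ± 0.14 in run 1 and by 0.42 ± 0.14 in run 2. The difference between the runs' responses was called for 0 of the 10 genes and for 1139 of all 14459 tested genes. Alongside these rises the summed level of the 12 fibroblast markers went from 945 to 1357 on untreated wild-type arrays to 658 to 876 on treated ones, with 6 markers lower and 1 higher, and its part in the result was not tested.

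**Figure D1:**
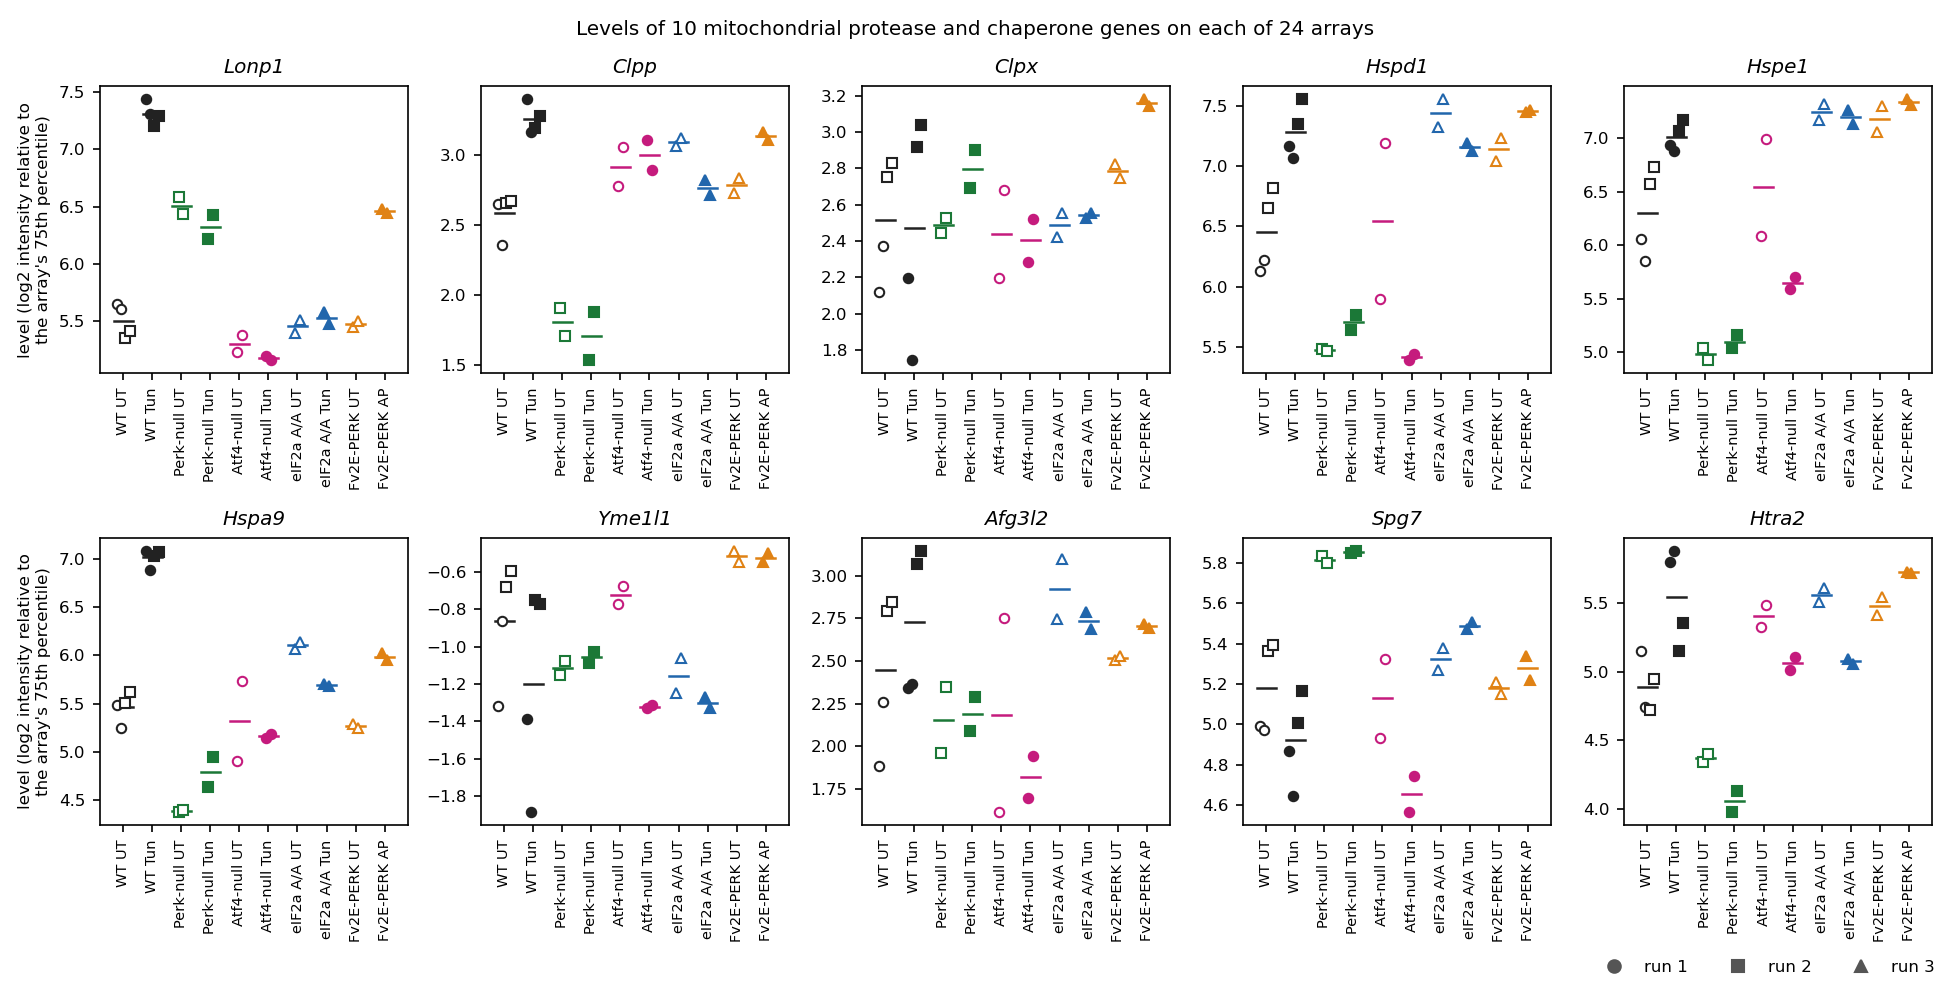
Level of each of the 10 genes (log2 intensity relative to the array's 75th percentile, vertical axis, scaled per gene) on all 24 arrays by group, with open symbols for untreated (UT) and filled symbols for treated arrays, a line at the group mean and the symbol shape giving the scan run. Treated wild-type arrays sit between 7.20 and 7.44 for Lonp1 and between 6.89 and 7.09 for Hspa9, above every other array.

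Promoter windows are shown for 3 of the genes, Lonp1 as the gene with the largest response and Hspd1 and Hspe1 as neighbours whose levels moved together (Pearson r = 0.96 over the 24 arrays, which share runs and treatments). The windows, from RefSeq on GRCm38.p6, run from 250 bases before to 50 bases after an annotated start. RefSeq windows were matched for 7 of the 10 genes, with 2 for Hspd1, and the genes without one were Hspa9, Afg3l2 and Htra2. The Lonp1 window lies at chr17:56626854-56627153 on the minus strand, the second Hspd1 window at chr1:55087883-55088182 on the minus strand and the Hspe1 window at chr1:55087898-55088197 on the plus strand. Capitals mark the heat-shock element, searched as GAANNTTC on both strands.
Lonp1: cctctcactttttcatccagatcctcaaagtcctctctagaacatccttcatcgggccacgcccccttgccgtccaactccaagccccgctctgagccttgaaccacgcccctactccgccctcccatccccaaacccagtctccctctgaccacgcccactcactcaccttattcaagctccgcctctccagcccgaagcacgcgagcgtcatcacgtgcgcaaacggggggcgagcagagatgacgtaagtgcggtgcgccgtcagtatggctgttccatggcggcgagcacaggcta
Hspd1, the second start: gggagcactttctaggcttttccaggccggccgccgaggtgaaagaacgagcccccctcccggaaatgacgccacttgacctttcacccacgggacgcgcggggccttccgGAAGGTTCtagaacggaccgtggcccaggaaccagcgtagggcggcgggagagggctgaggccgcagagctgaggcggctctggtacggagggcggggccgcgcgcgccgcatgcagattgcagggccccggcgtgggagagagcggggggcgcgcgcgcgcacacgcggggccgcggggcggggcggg
Hspe1: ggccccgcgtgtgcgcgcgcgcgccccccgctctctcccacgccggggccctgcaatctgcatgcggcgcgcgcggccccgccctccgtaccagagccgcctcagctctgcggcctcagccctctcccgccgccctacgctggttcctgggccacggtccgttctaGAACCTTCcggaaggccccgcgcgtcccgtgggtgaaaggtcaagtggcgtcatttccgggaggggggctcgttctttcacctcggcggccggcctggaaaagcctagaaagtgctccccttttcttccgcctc
The windows of Hspd1 and Hspe1 read the same 285 bases on opposite strands, the Hspd1 start lying at -216 from the Hspe1 start, so the element is a single site, at position -139 from the Hspd1 start and -84 from the Hspe1 start. GAANNTTC was in 7.86% of all 32851 promoter windows of this length, and in no other window of the 10 genes. The other 3 stress motifs searched, the C/EBP-ATF response element as TGATGNAA, the cAMP response element as TGACGTCA and the ER stress response element (searched under that name), were in none of the 8 windows, against 3.97%, 1.79% and 0.119% of all windows. CCAAT, which the ER stress response element contains, was in the windows of Clpx and Yme1l1 and in the first one of Hspd1, against 37.4% of all windows. These are matches of letters in a short window and say nothing of binding.

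In Perk-null fibroblasts the tunicamycin responses of Lonp1, Hspa9, Clpp and Htra2 were lower than in wild type. Among these genes only Hspa9 had a positive estimate, without a call. By limma 0 of the 10 genes were called in Perk-null cells, where 2.28% of all tested genes were, and 1825 genes had an unadjusted p under 0.05. Lonp1 read 6.58 and 6.43 untreated and 6.22 and 6.43 treated, a difference of -0.18 ± 0.11 (limma adjusted p = 0.583, 95% interval -0.42 to 0.06). The interval excludes the wild-type rise of Lonp1, and the treated arrays were not above the untreated ones. Hspa9 read 4.38 and 4.40 untreated and 4.64 and 4.95 treated, a difference of 0.40 ± 0.19 (limma adjusted p = 0.41, 95% interval -0.01 to 0.82). Both treated Hspa9 arrays were the higher ones, below every wild-type array of either treatment. Hspd1 read 5.48 and 5.47 untreated and 5.64 and 5.77 treated, and Hspe1 5.04 and 4.93 untreated and 5.04 and 5.16 treated, small shifts with 95% intervals of -0.34 to 0.79 and -0.36 to 0.59. Clpp read 1.91 and 1.71 untreated and 1.54 and 1.88 treated, and Htra2 4.34 and 4.40 untreated and 3.98 and 4.13 treated, with differences of -0.10 ± 0.15 and -0.32 ± 0.16. The inner-membrane proteases Yme1l1, Afg3l2 and Spg7 differed by 0.06, 0.03 and 0.04, and Clpx by 0.31 ± 0.19, none of them called. Summed epithelial markers were 44.2 to 53.7 on untreated and 52.3 to 58.4 on treated Perk-null arrays, and their part in these values was not tested.

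The difference itself was tested as the Perk-null minus the wild-type response, in which 4 genes were lower and 0 higher, against 6.64% of all tested genes lower. Lonp1 differed by -1.99 ± 0.14 (limma adjusted p = 1.1e-06), Hspa9 by -1.15 ± 0.24 (0.00537), Htra2 by -0.98 ± 0.20 (0.00471) and Clpp by -0.77 ± 0.19 (0.0141). Against the wild type of its own run, Lonp1 differed by -2.05 ± 0.16, Hspa9 by -1.08 ± 0.28 and Htra2 by -0.74 ± 0.20, all called, while Clpp was not, at -0.67 ± 0.21 (limma adjusted p = 0.0716). That wild type shares the run with Perk-null cells but differs from them in the sex-linked genes. The Clpp call also ended without untreated Perk-null replicate 1 (-0.67, adjusted p = 0.0857) or treated replicate 1 (-0.60, adjusted p = 0.0938). For the chaperonin the difference was not called, at -0.60 ± 0.32 for Hspd1 (limma adjusted p = 0.251, 95% interval -1.29 to 0.09) and -0.59 ± 0.27 for Hspe1 (0.172, -1.17 to -0.01). Both were called, at the same size, when either untreated Atf4-null array was left out (limma adjusted p = 0.0137 and 0.0384).

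In Atf4-null fibroblasts the chaperonin was lower on the arrays of tunicamycin-treated cells. Of the 10 genes 4 were lower and 0 higher, against 17.1% of all tested genes lower. Both untreated arrays were on one slide and both treated arrays on another, scanned on other days, so treatment, slide and scan day cannot be told apart in this line. Summed haematopoietic markers were 12.0 to 21.4 untreated and 30.7 to 90.3 treated, Itgam among them and the muscle marker Des were called higher and the neural marker Nes lower, and their part in these values was not tested. Hspd1 read 5.90 and 7.19 untreated and 5.39 and 5.44 treated, and Hspe1 6.09 and 6.99 untreated and 5.59 and 5.70 treated. The untreated replicates were far apart and both treated arrays lay below them. Hspd1 fell by 1.13 ± 0.26 on the log2 scale (limma adjusted p = 0.00531) and Hspe1 by 0.89 ± 0.22 (0.00741). In a fit of the Atf4-null arrays alone the SEs were 0.50 and 0.39 (limma adjusted p = 0.325 and 0.324). That fit called 0 of all tested genes, so all 4 calls of this line rest on the spread shared with the other groups. The size rested on the untreated array chosen: without untreated replicate 1 the responses were -1.77 and -1.35, and without untreated replicate 2 they were -0.48 (limma adjusted p = 0.0408) and -0.44 (0.117). Under quantile normalization Hspe1 was not called, at -0.47 (limma adjusted p = 0.0653). Yme1l1 read -0.77 and -0.67 untreated and -1.33 and -1.31 treated, a response of -0.60 ± 0.17 (limma adjusted p = 0.018). Spg7 read 4.93 and 5.33 untreated and 4.57 and 4.74 treated, a response of -0.47 ± 0.13 (0.0139). The Yme1l1 call ended without untreated replicate 2, treated replicate 1 or treated replicate 2 (adjusted p = 0.0962, 0.0713 and 0.0594). It also ended with the slide as a block (-0.52, adjusted p = 0.0723), with no run term (0.182), under normexp (-0.33, 0.0835) and with the 75th percentile taken over detected probes (-0.37, 0.0899). The Spg7 call ended without untreated replicate 2 (-0.28) or treated replicate 1 (-0.38), and with no run term (adjusted p = 0.0997). Its value was -0.13 under quantile normalization and -0.25 with the 75th percentile over detected probes, both uncalled, and -0.77 under normexp, which was called.

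Lonp1 and Hspa9 did not pass the test in Atf4-null cells. Lonp1 read 5.23 and 5.38 untreated and 5.20 and 5.16 treated, a difference of -0.13 ± 0.11 (limma adjusted p = 0.435, 95% interval -0.37 to 0.12). Under quantile normalization its sign turned, to 0.29 (limma adjusted p = 0.043), still far below the wild-type value. Hspa9 read 4.91 and 5.74 untreated and 5.14 and 5.18 treated, a difference of -0.16 ± 0.19 that became -0.58 and was called without untreated replicate 1. Clpp (2.77 and 3.05, then 3.10 and 2.89) and Clpx (2.19 and 2.68, then 2.29 and 2.52) overlapped between treatments. Afg3l2 read 1.62 and 2.75 untreated and 1.70 and 1.94 treated, and Htra2 5.32 and 5.48 untreated and 5.01 and 5.11 treated. Neither was called, at -0.36 ± 0.26 and -0.34 ± 0.16. Afg3l2 was called, at -0.93, without untreated replicate 1, and Htra2, at the same size, without untreated wild-type replicate 2 (limma adjusted p = 0.0475).

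As the Atf4-null minus the wild-type response, 6 genes were lower and 0 higher, against 19.6% of all tested genes lower. Hspd1 differed by -1.95 ± 0.32 (limma adjusted p = 0.000578), Lonp1 by -1.93 ± 0.14 (5.99e-07), Hspa9 by -1.72 ± 0.24 (0.000157) and Hspe1 by -1.60 ± 0.27 (0.000657). Htra2 differed by -1.0 ± 0.20 (0.0019) and Clpp by -0.59 ± 0.19 (0.0287). These were the 6 genes that rose in wild type. That rise is subtracted in the difference, so the match is partly built in. With wild type of the same run alone and the scan day as a block, the same 6 were called, with values from -0.69 for Clpp to -2.07 for Hspd1. Quantile normalization moved Lonp1 to -1.26, Hspa9 to -1.10 and Hspe1 to -0.95, all still called, and ended the calls of Htra2 (-0.44, limma adjusted p = 0.0777) and Clpp (-0.25, 0.287). The Clpp call also ended without untreated Atf4-null replicate 2 (-0.45) or treated replicate 2 (-0.48). Afg3l2, at -0.65 ± 0.32, and Spg7, at -0.21 ± 0.16, were not called, but passed without untreated Atf4-null replicate 1 (-1.21 and -0.41).

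In eIF2a A/A fibroblasts 0 of the 10 genes passed the test by limma, where 4.9% of all tested genes did and 2515 had an unadjusted p under 0.05. Lonp1 read 5.40 and 5.51 untreated and 5.58 and 5.47 treated, overlapping values with a difference of 0.07 ± 0.11 (limma adjusted p = 0.838, 95% interval -0.17 to 0.31). Hspa9 read 6.07 and 6.14 untreated and 5.71 and 5.68 treated, a difference of -0.41 ± 0.19 (limma adjusted p = 0.294). Htra2 read 5.51 and 5.61 untreated and 5.09 and 5.06 treated, a difference of -0.49 ± 0.16 (0.113). For these last 2 genes the treated arrays were the lower ones, and both passed in a fit of the eIF2a A/A arrays alone (limma adjusted p = 0.0348 and 0.0303). Htra2 also passed without untreated wild-type replicate 2 (0.0332). Hspd1 (7.32 and 7.55, then 7.19 and 7.13), Hspe1 (7.17 and 7.33, then 7.26 and 7.14) and Clpp (3.06 and 3.11, then 2.82 and 2.71) differed by -0.28 ± 0.26, -0.05 ± 0.22 and -0.32 ± 0.15. Clpx, Yme1l1, Afg3l2 and Spg7 differed by 0.05, -0.15, -0.19 and 0.17. Summed haematopoietic markers were 57.4 to 88.7 untreated and 33.0 to 34.5 treated. None of these markers was called, and their part in these values was not tested.

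The eIF2a A/A minus the wild-type response was lower for 5 genes and higher for 0, against 10.1% of all tested genes lower. Hspa9 differed by -1.96 ± 0.24 (limma adjusted p = 7.26e-05), Lonp1 by -1.73 ± 0.14 (2.45e-06), Htra2 by -1.14 ± 0.20 (0.00108), Hspd1 by -1.10 ± 0.32 (0.0276) and Clpp by -0.99 ± 0.19 (0.00206). Leaving out any of the 4 eIF2a A/A arrays ended the Hspd1 call, with values from -0.99 (adjusted p = 0.122) to -1.22 (0.0568), as did quantile normalization (-0.77, 0.079). Hspe1 was just short of the threshold at -0.75 ± 0.27 (limma adjusted p = 0.0666), and passed without either untreated Atf4-null array (0.00848). Spg7 stood at 0.42 ± 0.16 without a call (0.0797), and passed under quantile normalization (0.62, adjusted p = 0.00325), without treated wild-type replicate 1 and without either untreated Atf4-null array. Set against the wild type of run 1 alone, both chaperonin genes were called (Hspd1 -1.22 ± 0.38, limma adjusted p = 0.0298, and Hspe1 -1.0 ± 0.29, 0.0228), and against that of run 2 alone neither was (-0.99 ± 0.38, 0.107, and -0.51 ± 0.29, 0.299). With wild type split by run and both runs averaged, both were called (0.0263 and 0.0464). The eIF2a A/A arrays were all in run 3, which holds no wild-type array, so run and line cannot be told apart in their levels, while the response compares arrays within the run.

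Lonp1, Hspa9, Htra2 and Clpp were thus lower in all 3 mutant responses than in wild type. The 3 differences share the 8 wild-type arrays and are not independent of each other. For Clpp, fits of the compared groups alone ended the call in Perk-null (limma adjusted p = 0.0637) and Atf4-null cells (0.125). The 75th percentile over detected probes moved its Atf4-null difference to -0.24 (limma adjusted p = 0.264).

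**Figure D2:**
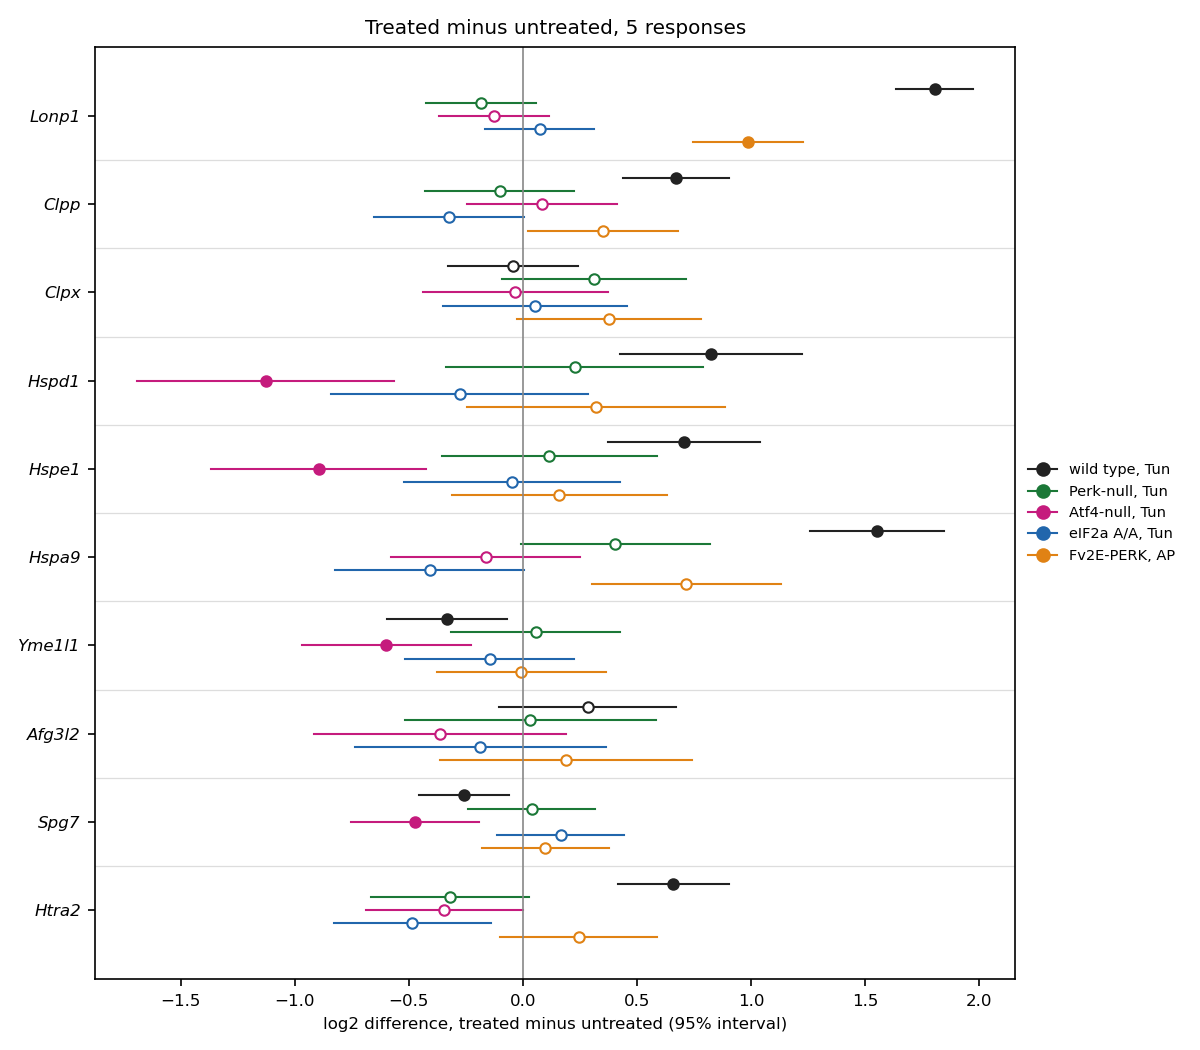
Treated minus untreated difference (log2, horizontal axis) of the 10 genes in the 5 lines, with the estimate from the fit of all 24 arrays as a point and its 95% interval as a line; filled points have a limma adjusted p below 0.05. Lonp1 rose in wild type (1.80) and in Fv2E-PERK given AP (0.99) and stayed between -0.18 and 0.07 in the other lines.

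**Figure D3:**
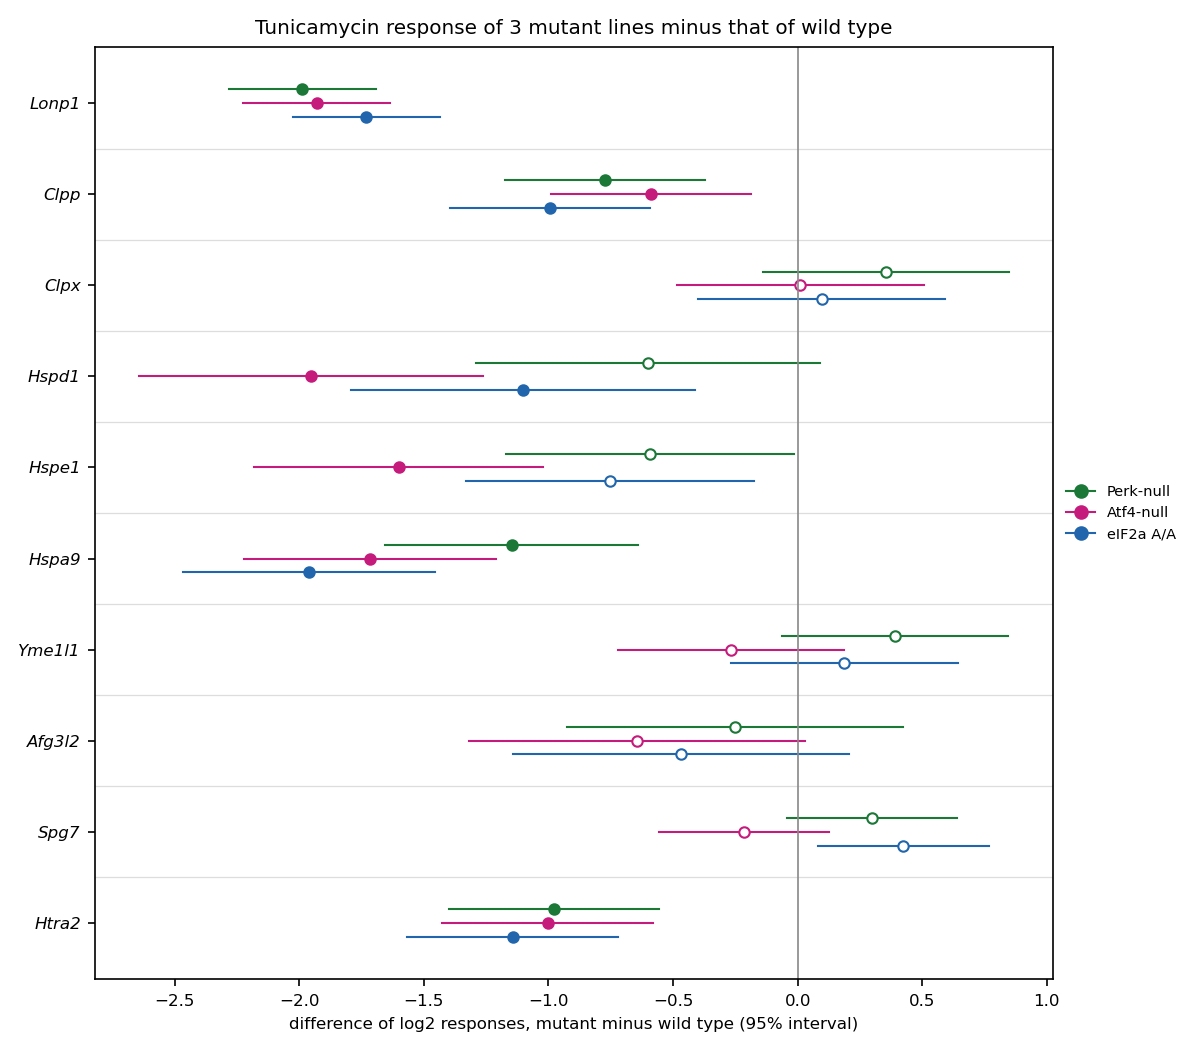
Tunicamycin response of the Perk-null, Atf4-null and eIF2a A/A lines minus that of wild type (log2, horizontal axis) for the 10 genes, with the estimate as a point and its 95% interval as a line; filled points have a limma adjusted p below 0.05. Lonp1 lies between -1.99 and -1.73 and Hspa9 between -1.96 and -1.15, and no gene is called on the higher side.

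AP in Fv2E-PERK fibroblasts, with no tunicamycin, raised Lonp1. It read 5.45 and 5.50 untreated and 6.48 and 6.44 after AP, a response of 0.99 ± 0.11 (limma adjusted p = 0.000147), a 1.98-fold rise. Lonp1 was the 1 gene of 10 called, against 2.79% of all tested genes higher. Hspa9 read 5.29 and 5.25 untreated and 6.02 and 5.96 treated, and its response of 0.72 ± 0.19 just missed the threshold (limma adjusted p = 0.0524). It was called under 10 of 36 other settings, over which its value lay between 0.65 and 0.75, among them those without untreated wild-type replicate 2, treated wild-type replicate 1 or either untreated Atf4-null array. Of the 10 genes 9 had both AP arrays above both untreated ones, all but Yme1l1, and so did 45.4% of all tested genes. Clpp read 2.73 and 2.83 untreated and 3.16 and 3.10 treated, and Clpx 2.83 and 2.75 untreated and 3.18 and 3.14 treated, responses of 0.35 ± 0.15 and 0.38 ± 0.19. Neither was called in the main fit. In a fit of the Fv2E-PERK arrays alone both were (limma adjusted p = 0.0395 and 0.0296), as was Hspa9 (0.0116). That fit called 4160 of all tested genes in either direction, against 588 in the main fit. Hspd1 read 7.04 and 7.23, then 7.45 and 7.47, and Hspe1 7.06 and 7.30, then 7.37 and 7.31, responses of 0.32 ± 0.26 and 0.16 ± 0.22. Their 95% intervals, -0.24 to 0.88 and -0.31 to 0.63, hold the wild-type estimate for Hspd1 and not for Hspe1. The Hspe1 estimate in wild type, 0.71 ± 0.16, has its own error, and the interval is that of the brightest probe. A dimmer Hspe1 probe gave 0.28 ± 0.39 with AP against 0.52 ± 0.27 in wild type. The remaining one gave 0.20 ± 0.26 against 0.83 ± 0.19. Htra2 (5.42 and 5.54, then 5.73 and 5.72), Afg3l2 (2.51 and 2.53, then 2.72 and 2.69) and Spg7 (5.21 and 5.15, then 5.34 and 5.22) differed by 0.24, 0.19 and 0.10. Yme1l1 read -0.49 and -0.55 untreated and -0.55 and -0.50 treated. The median over the 10 genes was 0.28, against 0.08 over all tested genes. Summed fibroblast markers were 701 to 710 untreated and 349 to 358 after AP, and their part in these values was not tested. AP and tunicamycin differ in agent and line, so the sizes of the 2 responses were not compared by a test.

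Before any treatment, Perk-null fibroblasts had more Lonp1 than wild type and less of the chaperones Hspa9, Hspd1 and Hspe1. With the run term in the fit, 2 of the 10 genes were higher and 6 lower, against 16.3% and 24.8% of all tested genes. Lonp1 was higher by 1.1 ± 0.11 (limma adjusted p = 1.25e-06), its 2 untreated Perk-null arrays lying above all 4 untreated and below all 4 treated wild-type arrays. Spg7 was higher by 0.46 ± 0.12 (0.00746), at 5.84 and 5.80. Hspe1 was lower by 1.55 (-1.55 ± 0.21, adjusted p = 2.74e-05), Hspd1 stood at -1.20 ± 0.25 (0.00114) and Hspa9 at -1.14 ± 0.18 (0.000133). Clpp stood at -0.80 ± 0.14 (limma adjusted p = 0.000395), Afg3l2 at -0.67 ± 0.24 (0.0374) and Yme1l1 at -0.58 ± 0.16 (0.00952). Against the 2 wild-type arrays of run 2 alone, Lonp1 was higher by 1.12 and Hspe1 stood at -1.67, both called, while Afg3l2 was not, at -0.67 ± 0.27 (adjusted p = 0.059). These wild-type arrays share the run with Perk-null cells but differ from them in the sex-linked genes. The Afg3l2 call ended without any of 5 arrays, untreated wild-type replicates 2, 3 and 4, treated wild-type replicate 4 and untreated Perk-null replicate 1, and the last of these also ended the Yme1l1 call (adjusted p = 0.0637). Htra2, at -0.34 ± 0.15 (0.0855), was called against the wild type of run 2 alone, at -0.46 ± 0.14 (0.0156), and so it was without untreated wild-type replicate 2 (-0.40) or treated wild-type replicate 3 (-0.38). Clpx, at -0.42 ± 0.18 (0.0706), was called without either untreated Atf4-null array (0.043). The same arrays differed in marker genes: of 6 epithelial markers 4 were higher in untreated Perk-null cells, and of 12 fibroblast markers 11 were lower and 1 higher, with summed fibroblast levels of 299 to 313 against 945 to 1357. Both tested skeletal muscle markers, Myog and Des, and the haematopoietic marker Csf1r were also higher. Without replicate 2, the array whose file name gives 24 h, the same number of genes was called (2 higher and 6 lower), with Lonp1 at 1.17 ± 0.13, and the Perk-null minus wild-type response of Lonp1 was -2.06 ± 0.16. The part of the markers in the untreated differences was not tested, and line and genotype cannot be told apart.

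Untreated Atf4-null fibroblasts had 0 of the 10 genes called by limma, against 21.1% of all tested genes, of which 4810 had an unadjusted p under 0.05. Yme1l1 came nearest at 0.47 ± 0.16 (limma adjusted p = 0.0508), and Lonp1 stood at -0.29 ± 0.11 (0.0614). Against the wild type of the same run, Lonp1 was called at -0.32 ± 0.11 (adjusted p = 0.0466) and Htra2 at 0.46 ± 0.14 (0.0256). With the scan day, which untreated wild-type and Atf4-null arrays of run 1 share, as a block in that comparison, 5 genes were called: Lonp1 at -0.32, Yme1l1 at 0.37, Clpp at 0.41, Htra2 at 0.46 and Hspe1 at 0.58. The 2 untreated Atf4-null arrays differed by over 1 unit for Hspd1 and Afg3l2. Without replicate 1 of them, Hspd1 was called at 0.96, Hspe1 at 0.91, Afg3l2 at 0.68 and Clpp at 0.50, and without replicate 2, Hspa9 was called at -0.49. Yme1l1 was called without untreated wild-type replicate 2 (0.67) or treated wild-type replicates 1 (0.50) or 2 (0.40), and Lonp1 without treated wild-type replicate 2 (-0.31).

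Across the 10 groups, Lonp1 was highest in treated wild type (mean 7.31 ± 0.10, SD), followed by untreated Perk-null (6.51 ± 0.10), Fv2E-PERK with AP (6.46 ± 0.03) and treated Perk-null (6.32 ± 0.15), 3 groups whose arrays lay within or beside each other's range. The 6 other groups lay between 5.16 and 5.65. For Hspa9 the order was treated wild type (7.02 ± 0.09), then untreated eIF2a A/A (6.10 ± 0.05) and Fv2E-PERK with AP (5.99 ± 0.05), which differed by little beyond their spread, and Perk-null cells were lowest (4.39 ± 0.01 untreated and 4.79 ± 0.22 treated). For Hspd1 and Hspe1 the order differed: the run 3 lines and treated wild type were at the top, from 7.04 upwards for Hspd1, together with 1 untreated Atf4-null array, and Perk-null and treated Atf4-null cells at the bottom, at 5.39 to 5.77 for Hspd1 and 4.93 to 5.70 for Hspe1.

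Levels over the 24 arrays showed which of the 10 genes moved together, as a description of arrays that share runs and treatments. Hspd1 and Hspe1 were each other's most alike among the 10 (r = 0.96), as were Clpp and Htra2 (r = 0.90) and Clpx and Yme1l1 (r = 0.78). The lowest of these highest correlations were those of Spg7, 0.44 with Clpx, and Lonp1, 0.52 with Hspa9. Among all 14458 other tested genes, those most like Lonp1 were Chchd10, encoding a mitochondrial intermembrane-space protein (r = 0.94), Acox2, a peroxisomal oxidase (0.93), Pla2g12a, a secreted phospholipase (0.91), Akr1b7, an aldo-keto reductase (0.91), and Arhgef2 (0.91). The most alike gene was Nat10 for Hspd1 (0.98), Mmachc for Hspe1 (0.98), Xpot, which exports tRNA from the nucleus, for Hspa9 (0.96), Surf2 for Clpp (0.97), Golph3 for Clpx (0.92), Sephs1 for Yme1l1 (0.88), Cdk9 for Afg3l2 (0.94), Dnajc9 for Spg7 (0.95) and Zpr1 for Htra2 (0.95).

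Other genes of mitochondrial protein care and import were examined as 4 lists. In wild type, where 21.2% of all tested genes rose and 16.3% fell, 6 of 9 other mitochondrial chaperones and co-chaperones rose and 0 fell, with a median of 0.43. They included Dnaja3, the J-protein partner of the mitochondrial HSP70, at 1.29 ± 0.11 (limma adjusted p = 3.26e-07), Clpb, a disaggregase, at 1.04 ± 0.14, Grpel2, a nucleotide exchange factor of HSP70, at 0.83 ± 0.11, and Dnajc15 at 0.56 ± 0.11. Of 16 other proteases and scaffolds, 6 rose and 3 fell (median 0.19), with the rhomboid protease Parl at 0.85 ± 0.11, the prohibitin Phb2 at 0.73 ± 0.15, the presequence protease Pitrm1 at 0.47 ± 0.13 and Lactb at -0.75 ± 0.13. Of 23 import genes 10 rose and 0 fell (median 0.29). Those with the lowest adjusted p were the small chaperones of the intermembrane space Timm8a1 (1.41 ± 0.17), Timm10 (1.11 ± 0.15) and Timm9 (0.77 ± 0.14) and the channel protein Timm23 (0.63 ± 0.12). Of 12 genes of mitochondrial biogenesis and content 3 rose, a share near that of all genes, and 0 fell (median 0.18). They were Tfam (0.61 ± 0.10), Tfb1m (0.68 ± 0.13) and Polrmt (0.30 ± 0.09), which package mitochondrial DNA, modify mitochondrial ribosomal RNA and transcribe the mitochondrial genome.

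The same lists were followed in the other lines. In Perk-null cells, where 2.28% of all tested genes were called, 0 genes of the 4 lists were. In eIF2a A/A cells, where 4.9% of all tested genes were called, 3 import genes fell, Timm9 (-0.97 ± 0.20), Timm10 (-0.85 ± 0.21) and Gfer (-0.64 ± 0.15), and 0 genes of the other lists were called. Leaving out untreated replicate 1, untreated replicate 2 or treated replicate 2 of the line took these 3 calls to 0, and leaving out treated replicate 1 to 1. In Atf4-null cells, where 17.1% of all tested genes were lower, 10 of 23 import genes fell and 0 rose, Tomm6 (-1.14 ± 0.13) and Timm17a (-0.88 ± 0.16) among them. There, 5 of the other proteases and scaffolds fell and 1 rose, with the prohibitin Phb at -2.06 ± 0.34, 1 chaperone (Hscb, 0.53 ± 0.18) rose, and 3 biogenesis genes fell and 1 rose. Without untreated Atf4-null replicate 2 the calls over the 4 lists went from 21 to 11, and without replicate 1 to 32. With AP in Fv2E-PERK cells, where 2.79% of all tested genes were higher, the calls were Dnaja3 (0.68 ± 0.15, limma adjusted p = 0.0201), Tfb1m (0.75 ± 0.19, 0.0382) and Immp2l, an inner-membrane peptidase subunit (2.55 ± 0.65, 0.0392), and 0 import genes. These 3 calls went to 0 without untreated replicate 1, untreated replicate 2 or treated replicate 2 of the line, and with no run term, and to 1 without treated replicate 1 or any of the 4 eIF2a A/A arrays.

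As differences from the wild-type response, 5 of the 9 other chaperones were lower in Perk-null, 6 in Atf4-null and 4 in eIF2a A/A cells, with 0 higher in each. Of all tested genes 6.64%, 19.6% and 10.1% were lower in these comparisons. Dnaja3 differed by -1.15 ± 0.19, -0.96 ± 0.19 and -1.34 ± 0.19. Import genes were lower for 4, 15 and 9 of 23, with Timm8a1 at -1.69 ± 0.30, -1.95 ± 0.30 and -1.99 ± 0.30. Of the 16 other proteases and scaffolds 1, 6 and 3 were lower, Parl in each, and Lactb was higher in Perk-null cells (0.86 ± 0.22). Of the 12 biogenesis genes 0, 4 and 0 were lower.

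The 5 regulators linked to these genes were followed too. In wild type Ddit3, which encodes CHOP, rose by 4.67 ± 0.14 and Atf5, a factor tied to the mitochondrial stress response, by 1.67 ± 0.21. Cebpb stood at 0.27 ± 0.33 there and the heat-shock factor gene Hsf1 at 0.12 ± 0.10. Neither was called in any of the 5 responses. Mean Cebpb still went from 3.01 ± 0.01 (SD, n = 2) to 4.07 ± 0.01 with AP. In eIF2a A/A cells it went from 3.22 ± 0.15 to 4.12 ± 0.03. In Perk-null cells it went from 3.13 ± 0.07 to 3.91 ± 0.07. In Atf4-null cells its response was 0.02 ± 0.46 (SE). The fit shares its estimate of spread with wild type, where Cebpb SDs were 0.89 untreated and 0.52 treated. The absent calls so do not show that Cebpb was unchanged. Ddit3 also rose in Perk-null (1.27 ± 0.20), Atf4-null (3.47 ± 0.20) and eIF2a A/A cells (1.13 ± 0.20) and with AP (2.32 ± 0.20). The Atf4 transcript read 7.20 to 7.65 on untreated and 8.63 to 9.14 on treated wild-type arrays, which do not overlap. Its response of 1.47 ± 0.66 was not called (limma adjusted p = 0.0956) in a fit that shares its estimate of spread with the Atf4-null arrays, whose SDs were 2.01 untreated and 3.03 treated, against 0.24 and 0.26 in wild type. In Perk-null cells Atf4 read 6.56 and 6.76 untreated and 7.85 and 7.95 treated. With AP it went from 7.48 and 7.59 to 8.36 and 8.32. The eIF2a A/A arrays overlapped, at 7.76 and 7.96 untreated and 7.86 and 7.73 treated. Atf4 was called in Atf4-null cells alone, as lower. Atf5 rose by 1.66 ± 0.30 in Perk-null cells (limma adjusted p = 0.00588), where 0 of the 10 genes were called, and by 1.39 ± 0.30 with AP. Atf5 was not called in Atf4-null (0.40 ± 0.30) or eIF2a A/A cells (0.53 ± 0.30). Its level was 5.84 ± 0.44 (SD, n = 4) in untreated and 7.51 ± 0.06 in treated wild type, and 5.84 ± 0.20 (n = 2) in treated Perk-null cells, near the untreated wild-type mean.

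**Figure D4:**
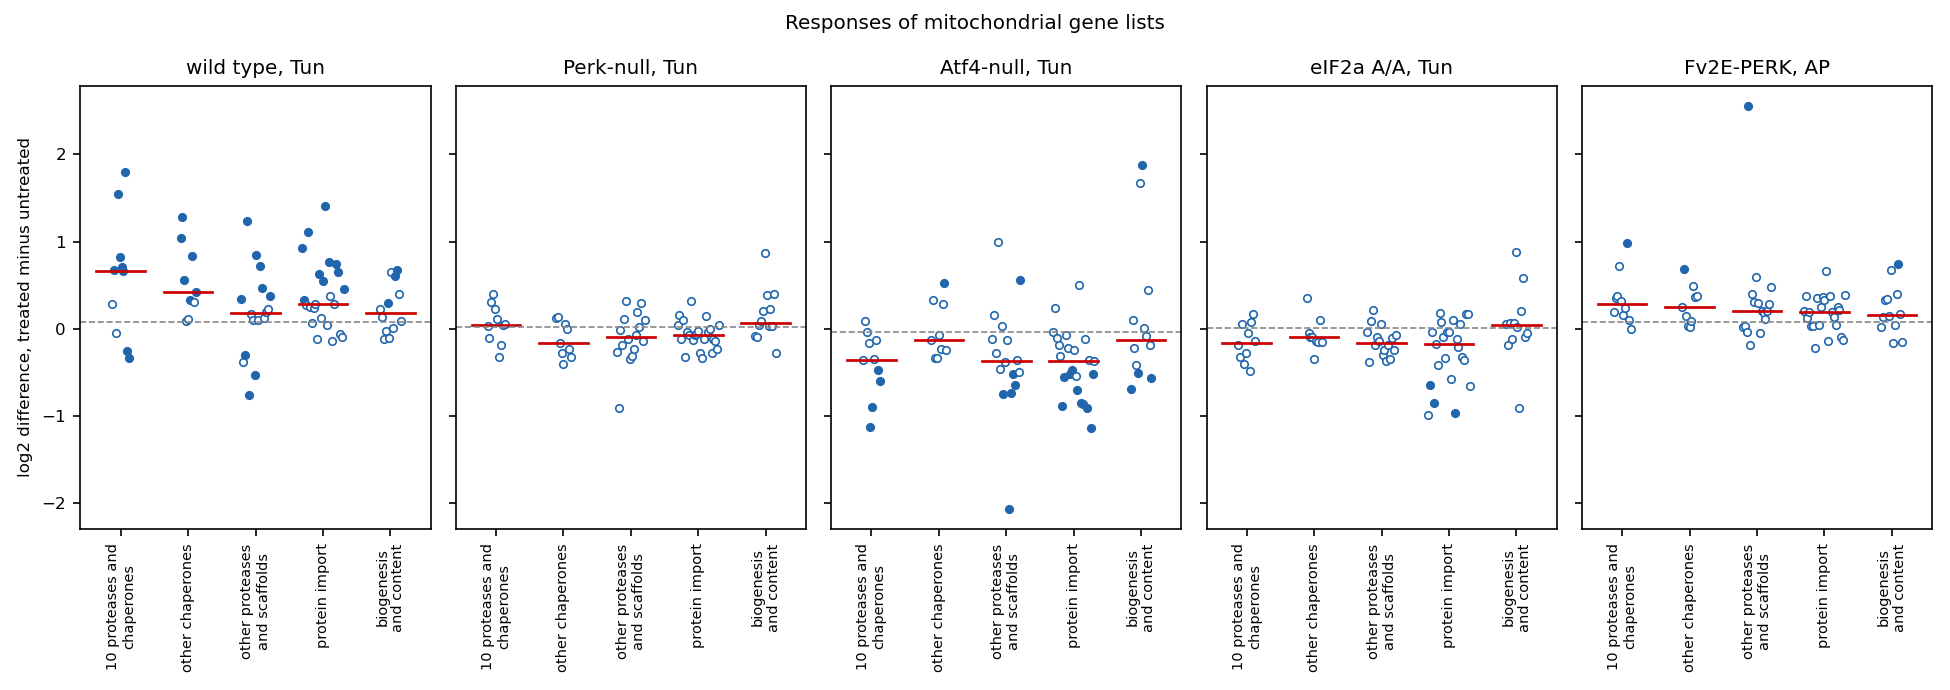
Treated minus untreated difference (log2, vertical axis) of every gene in the 10 proteases and chaperones and in 4 further lists, 1 panel per line; filled points have a limma adjusted p below 0.05, red lines are list medians and the dashed line is the median of all tested genes. Wild type has medians of 0.66, 0.43, 0.19, 0.29 and 0.18 in list order. The Perk-null panel has no filled point, in a response where 2.28% of all tested genes were called.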

How the data were processed

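RNA of 24 samples was labelled with Cy3 and hybridised 1 sample per array. The submitters' processing notes name Agilent Feature Extraction 10.7.1.1 as the source of the spot values. The deposited processed signal is a linear intensity, background-subtracted and not normalized between arrays, per the file headers. Other deposited columns, per the file headers, hold the median intensity of each spot and of its background and flags of 0 or 1 for spots well above background, saturated or outlying. The authors' deposited table holds log2 values. Of its values, 99.3% lay within 0.001 of log2 processed intensity after removing 1 constant per array and per probe, so scale was settled and the probe centring stayed unknown. Medians of its columns lie between -0.32 and 0.49.

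Outlier spots were dropped, spots of a probe averaged, and log2 intensity taken relative to each array's 75th percentile. Genes were named by transcript accession, with the brightest probe per gene. A gene was tested if all arrays of 1 or more groups had its probe well above background (14459 of 20170). Models were fitted with limma 3.58.1 in R 4.3.3 (lmFit, eBayes): 10 group means and a term for the second scan run, estimated from wild type, the group present in both of the first runs, so that it also holds any difference between the wild-type cells of these runs, with 13 residual degrees of freedom. Adjusted p-values follow Benjamini-Hochberg over all tested genes within each of 10 contrasts. The code was tested on simulated data.

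The 10 genes and all lists were chosen with earlier results of these data known. Up to 4 genes per list and contrast are named, those with the lowest adjusted p, besides regulators, which are all described; the genes of like pattern are the 5 most correlated for Lonp1 and 1 for each other gene. Alternatives changed the background correction (normexp, offset 50), normalization, probe rule, dim-gene filter, samples fitted, run, slide and replicate terms, and left out each array. Precision is limited by 2 to 4 arrays per group.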

Additional observations from a re-analysis of the deposited data

Results flagged for a closer look

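Among the untreated wild-type arrays, Clpp was lower in replicate 2, at 2.36, than in the other 3, which lay between 2.65 and 2.67. Over these arrays the SD of Clpp was 0.15, and the SDs of the 10 genes ran from 0.15 (Lonp1) to 0.46 (Afg3l2). The gap was thus wide only relative to the closeness of the other 3 arrays. How often a gap of this relative size is met by chance was not tested.

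The tunicamycin response differed from that of wild type, by the test of the difference itself, for 4 genes in Perk-null cells: Lonp1 by -1.99, Hspa9 by -1.15, Htra2 by -0.98 and Clpp by -0.77. In Atf4-null cells it differed for Hspd1 by -1.95, Lonp1 by -1.93, Hspa9 by -1.72, Hspe1 by -1.60, Htra2 by -1.0 and Clpp by -0.59. In eIF2a A/A cells it differed for Hspa9 by -1.96, Lonp1 by -1.73, Htra2 by -1.14, Hspd1 by -1.10 and Clpp by -0.99. These comparisons share the wild-type arrays.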

How the results depend on the processing

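All 36 calls of the 10 genes kept their sign under every setting run, and 21 were called under all of them. The 1 value that turned and was called was Lonp1 in Atf4-null cells under quantile normalization, 0.29 against -0.13. Wild-type calls went from 8 to 4 of the 10 genes, and from 28 to 15 in the wider lists, with run 2 alone. Perk-null calls in the wider lists went from 0 to 1 with genes above background on all arrays, with own-run wild type and with the slide as a block. Atf4-null calls went from 4 to 2 (75th percentile over detected probes; no run term) and 0 (only the groups compared), and in the wider lists from 21 to 12 (quantile), 10 (no run term) and 0 (only the groups). For eIF2a A/A they went from 0 to 2 (only the groups), and in the wider lists from 3 to 5 (75th percentile over detected probes), 12 (only the groups) and 1 (no run term; replicate block). For AP they went from 1 to 2 (quantile, 75th percentile over detected probes, genes above background on all arrays, own-run wild type, slide block) and 4 (only the groups), and in the wider lists from 3 to 1 (no filter), 18 (only the groups) and 0 (no run term; replicate block). Untreated Perk-null calls went from 8 to 5 with only the groups. Untreated Atf4-null calls went from 0 to 3 (normexp), 1 (quantile; 75th percentile over detected probes; genes above background on all arrays; slide block), 2 (own-run wild type) and 5 (own run with the scan day as a block, chosen after seeing the data). The cause was not tested.

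Leaving out each array gave 6 to 8 wild-type, 1 to 6 Atf4-null, 0 to 1 eIF2a A/A and 1 to 2 AP calls, and in the wider lists 24 to 29, 11 to 32, 0 to 7 and 0 to 5, with 0 to 1 for Perk-null. Differences from wild type gave 3 to 6 (Perk-null), 5 to 8 (Atf4-null) and 4 to 7 (eIF2a A/A), and untreated cells 6 to 9 (Perk-null) and 0 to 4 (Atf4-null). With replicate numbers as a block, 7 wild-type, 3 Atf4-null and 1 AP calls were made and 0 in Perk-null, and 3, 5 and 5 in the differences. Deviations of same-numbered arrays correlated between -0.47 and 0.07, so the numbers do not pair samples. The lowest value, -0.47, was that of Perk-null cells. There, untreated replicate 1 shared a slide with treated replicate 2, and untreated replicate 2 with treated replicate 1. For all genes called, Perk-null response to tunicamycin, a block with crossed numbers, added after seeing the data, gave 157 against 330.

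Over all genes, calls ranged over settings from 3066 to 5973 (wild type), 0 to 509 (Perk-null), 0 to 6107 (Atf4-null), 174 to 3281 (eIF2a A/A), 138 to 4160 (AP), 769 to 2508, 1643 to 6552 and 1254 to 3302 (Perk-null, Atf4-null and eIF2a A/A minus wild type), and 4253 to 6497 and 1040 to 4893 (untreated Perk-null and Atf4-null). The 75th percentile over detected probes moved the median of all genes by 0.35 in the Atf4-null difference, and quantile normalization moved it by 0.12 there and by 0.13 in the eIF2a A/A difference.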
